A study of Mus musculus with 2 samples.

Results

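The nuclear genes of the respiratory chain and ATP synthase were examined in ChIP-seq libraries of Msl1 and Nsl1, subunits of the MSL and NSL complexes, which both hold the histone H4 lysine 16 acetyltransferase Mof. Members were the protein-coding genes of the mm9 annotation on autosomes whose symbol begins with Nduf, Uqcr, Cox4 to Cox8 or Atp5, without single-exon copies. The rule gave 84 gene entries with 83 different symbols, of 18685 multi-exon protein-coding genes on autosomes, and used no read. By symbol, 41 entries belong to complex I, 8 to complex III, 18 to complex IV and 17 to complex V. The mouse embryonic stem cells (mESCs) of both libraries were wild type E14 cells of 129P2/OlaHsd background at passage 26. No Input library was used here. The Msl1 library was made with antibody 3208 and a NEXTFlex kit and gave 23888517 reads, each 50 bases long, while antibody 3130 and a NEBNext kit were used for Nsl1 and gave 26084098 reads, each 36 bases long. With 1 library per antibody nothing could be tested between samples, no p-value is given, and all 95% confidence intervals (CI) cover counting error only. The libraries hold DNA and no RNA, so the cell type could not be checked against expressed markers.

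Complex I takes electrons from NADH, complex III passes them from ubiquinol to cytochrome c, complex IV hands them to oxygen, and complex V, the ATP synthase, uses the proton gradient that the others build. A few subunits of these complexes are encoded in mitochondrial DNA, and all others in the nucleus. Some nuclear subunits exist as isoforms from separate genes, of which one is used in most tissues and the others in muscle, lung or testis. The transcription factors Nrf1, Gabpa and Yy1 are known to act at promoters of many of these genes.

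The value used throughout is the density of reads within 500 bases of the transcription start site (TSS), divided by the density of the same library at distances of 5 kb to 50 kb from it, here called the local level. Reads were counted with 1 kept per position and strand on nuclear chromosomes, which left 24883001 Nsl1 reads and 19483142 Msl1 reads. Of the 84 entries, 58 (69.0%) held Nsl1 reads at 3 times the local level or more, against 26.3% of all multi-exon autosomal genes. For Msl1 the same held for 41 entries (48.8%), against 25.5% of all genes. In both libraries together 34 entries (40.5%) reached 3 times, against 12.8% of all genes. A further 24 entries (28.6%) reached it for Nsl1 alone, against 13.5% of all genes, 7 (8.33%) for Msl1 alone, against 12.8%, and 19 (22.6%) for neither, against 61.0%. The counts depended on the window. Within 250 bases of the TSS 62 entries (73.8%) reached 3 times for Nsl1, against 31.6% of all genes, but only 25 (29.8%) did for Msl1, against 20.4%. Within 1000 bases it was 35 entries (41.7%) for Nsl1, against 14.8%, and 28 (33.3%) for Msl1, against 19.7%. Within 500 bases the median over the entries was 3.93 for Nsl1 and 2.94 for Msl1, where it was 1.796 and 1.99 over all genes. The TSS windows held 12 to 239 Nsl1 reads and 9 to 76 Msl1 reads. The lower bound of the interval was above 1 at 76 entries (90.5%) for Nsl1 and at 71 (84.5%) for Msl1, against 54.9% and 58.2% of all genes. The other genes of a related kind that were counted lay higher for Nsl1, with a median of 5.95 over 76 mitochondrial ribosomal protein genes, or slightly lower, with 3.53 over 75 cytosolic ribosomal protein genes. For Msl1 these medians were 3.11 and 3.63. Under 95% of positions in the TSS window were unique for the Nsl1 read length at 35 of the 75 cytosolic genes, against 10 of the 84 entries.

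Promoters are shown in mm9 for the member with the most Nsl1 reads in each complex, for Cox6a1, which holds several motifs, and for the muscle isoforms Cox8b and Cox7a1, which lay low in both libraries. Each window holds the 150 bases before the TSS, 5′ to 3′ on the strand of the gene, and that of Ndufaf1 holds 121 bases because it ends before the exon of another annotated transcript. Capitals mark matches, on either strand, to CGCANGCG (core of the Nrf1 site), CCGGAAG (Ets family, which includes Gabpa), AAGATGGC (Yy1), GGGCGG (Sp1), TATAAA, or the letters CCAAT.
Ndufaf1 (chr2:119488564-119488684, minus strand): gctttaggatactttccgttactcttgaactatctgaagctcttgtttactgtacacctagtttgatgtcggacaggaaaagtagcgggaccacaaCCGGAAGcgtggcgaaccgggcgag
Uqcrfs1 (chr13:30637232-30637381, minus strand): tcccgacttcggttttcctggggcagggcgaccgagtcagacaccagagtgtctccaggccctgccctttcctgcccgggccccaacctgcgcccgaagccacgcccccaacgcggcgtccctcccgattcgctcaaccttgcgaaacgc
Cox7a2 (chr9:79607661-79607810, minus strand): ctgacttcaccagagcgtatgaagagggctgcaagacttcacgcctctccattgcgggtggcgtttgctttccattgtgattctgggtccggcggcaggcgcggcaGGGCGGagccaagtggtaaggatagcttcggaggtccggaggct
Cox6a1 (chr5:115798991-115799140, minus strand): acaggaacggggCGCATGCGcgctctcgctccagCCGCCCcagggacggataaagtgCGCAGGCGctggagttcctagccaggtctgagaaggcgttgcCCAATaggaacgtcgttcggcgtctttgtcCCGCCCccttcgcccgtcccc
Atp5k (chr5:108863468-108863617, minus strand): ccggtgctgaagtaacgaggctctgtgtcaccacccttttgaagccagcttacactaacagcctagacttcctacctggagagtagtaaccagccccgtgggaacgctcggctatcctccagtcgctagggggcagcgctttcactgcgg
Cox8b (chr7:148086346-148086495, minus strand): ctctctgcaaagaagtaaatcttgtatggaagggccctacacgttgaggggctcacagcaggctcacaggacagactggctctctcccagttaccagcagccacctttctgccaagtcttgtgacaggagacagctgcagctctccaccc
Cox7a1 (chr7:30969040-30969189, plus strand): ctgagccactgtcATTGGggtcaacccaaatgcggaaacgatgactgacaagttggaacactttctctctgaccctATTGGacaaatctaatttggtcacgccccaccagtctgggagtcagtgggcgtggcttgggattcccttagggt

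The windows before Uqcrfs1 and Atp5k hold 15 and 8 CpG dinucleotides and no motif in capitals. The Nrf1 match of Atp5k lies outside the bases shown, in the longer window searched. That of Ndufaf1 holds 1 Ets match, and that of Cox6a1 holds the Nrf1 core at 2 positions besides 2 Sp1 matches and a CCAAT box. The window before Cox8b holds 1 CpG and no match, and that before Cox7a1 holds 4 CpG and 2 CCAAT boxes. A match of letters is a description, not a site of binding.

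**Figure D1:**
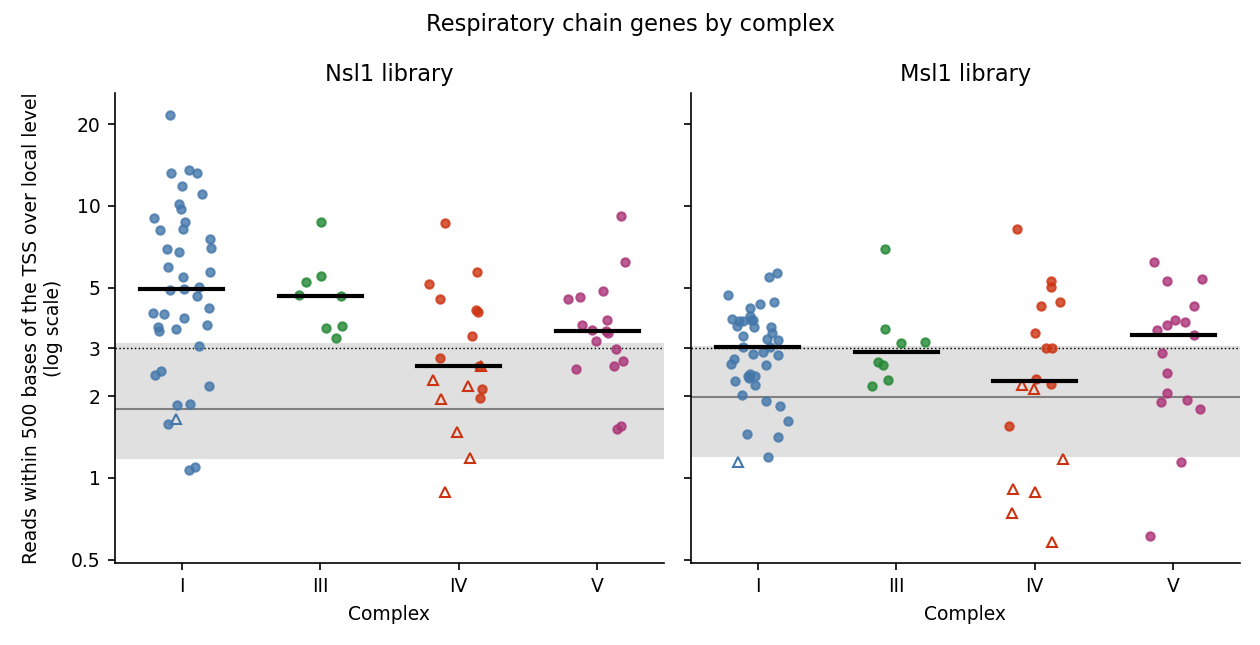
Nsl1 (left) and Msl1 (right) reads within 500 bases of the TSS over the local level on a log axis, with 1 point per gene entry by complex, open triangles for tissue-restricted isoforms and a black bar for the median of the complex. The grey line and band are the median and quartiles of all multi-exon autosomal genes and the dotted line is 3 times the local level. Most Nsl1 points of complexes I and III lie above the band, and all 8 triangles lie below the dotted line in both panels.

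The plot by complex shows that the 8 entries of complex III all reached 3 times for Nsl1, with a median of 4.68. In complex I, 32 of 41 did, with a median of 4.96. In complex V it was 11 of 17, with a median of 3.48, and in complex IV 7 of 18, with a median of 2.57. For Msl1 the numbers were 21 of 41 in complex I, 4 of 8 in complex III, 7 of 18 in complex IV and 9 of 17 in complex V, and the medians were 3.02, 2.90, 2.26 and 3.36. Of all genes, 26.3% reached 3 times for Nsl1 and 25.5% for Msl1. For Nsl1 the median of complex I was the highest and that of complex IV the lowest, also within 250 and 1000 bases. The Msl1 medians kept no order, since within 250 bases they were 2.59, 2.42, 2.19 and 1.94 for complexes I, III, IV and V, with complex V the lowest. Without the tissue-restricted isoforms and the entries that are no subunit, the median over the 9 remaining genes of complex IV was 3.34 for Nsl1 and 3.42 for Msl1.

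The core of complex I, which carries the flavin and the iron-sulfur clusters, lay high for Nsl1. Ndufs3, with its TSS at chr2:90744984, held 173 Nsl1 reads, 13.6 times the local level (CI 11.5 to 15.98), and 58 Msl1 reads, 3.95 times (2.98 to 5.14). The TSS of Kbtbd4 lies 87 bases inside Ndufs3 on the other strand, and the highest Nsl1 coverage lay at 95 bases. Reads of these overlapping genes cannot be told apart. Ndufv1, the subunit that binds NADH and the flavin, held 146 Nsl1 reads, 10.1 times, and 39 Msl1 reads, 3.41 times. Ndufs7, which holds the last iron-sulfur cluster before ubiquinone, held 154 Nsl1 reads, 9.04 times, and 56 Msl1 reads, 2.90 times. These 3 and Ndufs1, the largest subunit (8.25 times for Nsl1, 3.02 for Msl1), exceeded the Nsl1 median of the complex, 4.96. The iron-sulfur subunit Ndufs8 did so too, with 5.47 times for Nsl1, although its Msl1 reads reached 1.41 times (0.873 to 2.17). Ndufv2, the partner of Ndufv1, was the core gene with the lowest Nsl1 value, 2.396 (1.65 to 3.37), and gave 2.33 for Msl1. The median over the 7 core genes was 8.25 for Nsl1 and 2.90 for Msl1.

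Of all 84 entries, the assembly factor gene Ndufaf1 held the most Nsl1 reads. Its TSS at chr2:119488534 had 239 Nsl1 reads, 21.6 times the local level (18.7 to 24.9), which ranked 23 among 18579 genes with a value. There were 27 Msl1 reads, 2.401 times (1.57 to 3.51). Keeping repeated reads gave 28.8 times for Nsl1, and a window of 250 bases on each side gave 40.8 times. The highest coverage of Nsl1 lay at -65 bases. The other assembly factors lay lower. Ndufaf2 held 78 Nsl1 reads, 6.76 times, and 37 Msl1 reads, 3.60 times. Ndufaf3 gave 3.46 for Nsl1 and 3.23 for Msl1, and Ndufaf4 gave 3.54 and 3.58. At Ndufaf3 and Ndufaf4 the intervals of the libraries overlapped, and at Ndufaf1 and Ndufaf2 they did not.

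Among the accessory subunits of complex I, which surround its core, the values ranged widely. Ndufb3, with its TSS at chr1:58643228, held 132 Nsl1 reads, 13.2 times, and 56 Msl1 reads, 5.68 times, the highest Msl1 value of the complex. Ndufa4, now counted with complex IV by many, held 59 Nsl1 reads, 11.1 times, and 28 Msl1 reads, 5.48 times. On the other strand, Fam126b starts 61 bases from the TSS of Ndufb3 and Phf14 starts 363 bases from that of Ndufa4. Ndufa6 gave 4.04 for Nsl1 and 4.72 for Msl1. Ndufa9 held 158 Nsl1 reads, 13.2 times, but 28 Msl1 reads, 2.75 times, and Ndufb7 held 96 Nsl1 reads, 7.53 times, but 16 Msl1 reads, 1.61 times. Ndufs5 gave the lowest Nsl1 value of the complex, with 12 reads, 1.07 times (0.552 to 1.88), and 14 Msl1 reads, 1.20 times. Its value belonged to the annotated start that was used. At the most upstream annotated TSS of Ndufs5 the values were 5.78 for Nsl1 and 3.34 for Msl1. The second annotated entry named Ndufb8, with 2 exons, held 16 Nsl1 reads, 1.10 times, whereas the entry of the complex I subunit held 57, 3.87 times.

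In complex III, the Rieske iron-sulfur protein gene Uqcrfs1 was high in both libraries. At its TSS, chr13:30637231, the Nsl1 library held 92 reads, 8.73 times (6.97 to 10.8), and 46 Msl1 reads made 6.92 times (5.01 to 9.34), which ranked 128 for Msl1 among all genes. The core protein genes Uqcrc1 and Uqcrc2 held 65 and 64 Nsl1 reads, 4.66 and 5.51 times, and 31 and 37 Msl1 reads, 2.60 and 3.52 times. The small subunit genes Uqcrb and Uqcrq gave 5.26 and 4.70 for Nsl1 and 2.66 and 3.15 for Msl1. The lowest Nsl1 value of the complex was that of Uqcrh, the hinge protein, with 45 reads, 3.27 times (2.37 to 4.403). The remaining genes, Uqcr10 and Uqcr11, lay at 3.61 and 3.57 for Nsl1.

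In complex IV, Cox7a2, the form of subunit VIIa used in most tissues, held the most Nsl1 reads. They numbered 106 at chr9:79607660, 8.65 times the local level (7.02 to 10.6), beside 28 Msl1 reads, 3.42 times (2.26 to 4.99). Cox5b gave 5.72 for Nsl1 and 4.42 for Msl1, and Cox5a gave 2.77 and 4.297. Cox6c was the opposite of Cox7a2, with 20 Nsl1 reads, 2.13 times (1.29 to 3.31), and 51 Msl1 reads, 8.25 times (6.07 to 10.998), the highest Msl1 value of all 84 entries. At the most upstream TSS of Cox6c, however, the values were 5.18 for Nsl1 and 4.75 for Msl1, so the opposite order rested on the start that was used. Cox4i1, at chr8:123192190, and Cox4nb, at chr8:123192012, start 178 bases apart and run away from each other. They share most of their reads and are not independent, with 4.06 and 4.13 for Nsl1 and 5.05 and 5.32 for Msl1. Cox4nb is no subunit of the complex, and its symbol only names its neighbour. Cox7a2l, whose protein helps to join complexes III and IV, gave 5.16 for Nsl1 and 2.99 for Msl1.

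**Figure D2:**
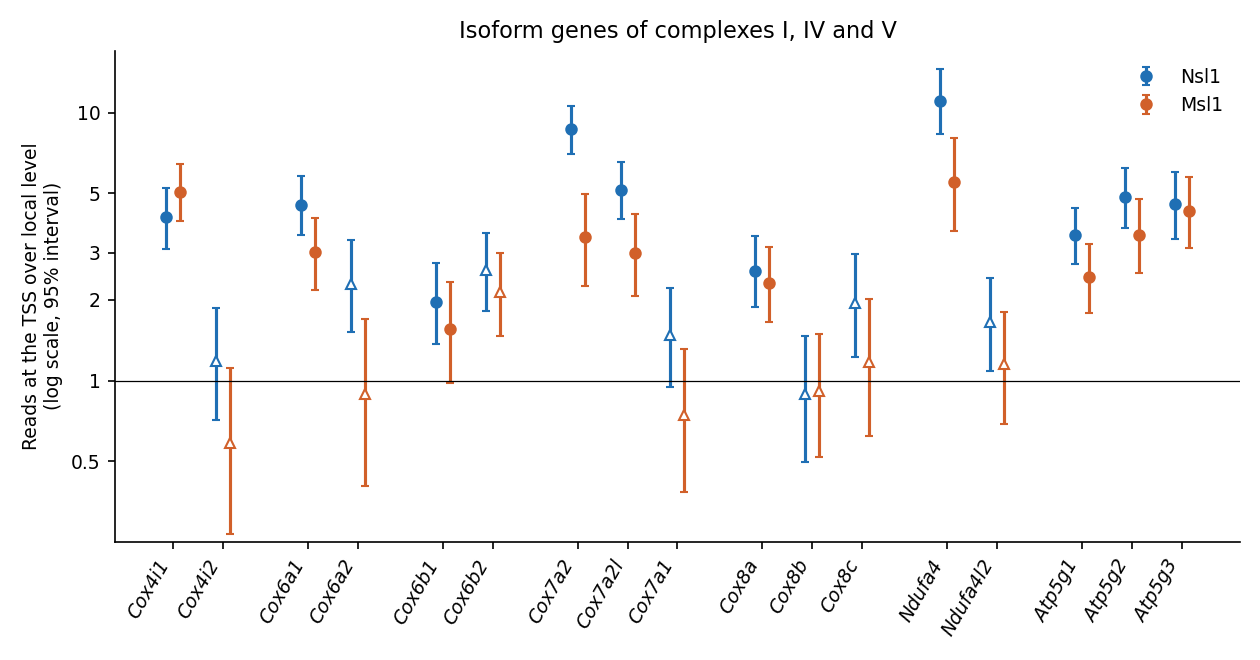
Nsl1 (blue) and Msl1 (orange) reads at the TSS over the local level, log axis, with 95% intervals from counting error, for isoform groups and, at the right, the 3 genes of subunit c of complex V. Open triangles are tissue-restricted isoforms, all of which lie below 3 in both libraries, as do Cox6b1 and Cox8a. Cox4i1, Cox6a1, Cox7a2 and Ndufa4 lie above 3 in both.

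The 8 isoform genes with known use in few tissues among the members were Ndufa4l2, Cox4i2, Cox6a2, Cox6b2, Cox7a1, Cox7b2, Cox8b and Cox8c. None of them reached 3 times in either library, where 26.3% of all genes did for Nsl1 and 25.5% for Msl1. Ndufa4l2 is known for its induction by hypoxia and was counted with them. Their median was 1.802 for Nsl1, about that of all genes (1.796), and 1.03 for Msl1, where it was 1.99 over all genes. At Cox4i2, the lung isoform, the libraries held 19 Nsl1 reads, 1.18 times (0.711 to 1.86), and 9 Msl1 reads, 0.584 times (0.266 to 1.11). At Cox4i1, its partner gene, the intervals lay wholly above those of Cox4i2, from 3.09 to 5.25 for Nsl1 and from 3.93 to 6.41 for Msl1. At the muscle isoform Cox7a1 the values were 1.48 for Nsl1 (0.943 to 2.21) and 0.746 for Msl1 (0.384 to 1.31), below both intervals of Cox7a2. The muscle isoform Cox8b gave the lowest Nsl1 value of all entries, 15 reads and 0.887 times (0.495 to 1.47), and 0.912 for Msl1. Outside the members, Cyct, the testis form of cytochrome c, went the other way for Nsl1. It held 53 Nsl1 reads, 4.29 times (3.19 to 5.65), and 15 Msl1 reads, 1.665 times.

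Not every isoform group differed in this way. The testis isoform Cox6b2 gave 2.57 for Nsl1 (1.81 to 3.55) and 2.13 for Msl1, while Cox6b1, used in most tissues, gave 1.97 (1.36 to 2.75) and 1.55, and the intervals overlapped in both libraries. For subunit VIII, Cox8a gave 2.57 for Nsl1 (1.88 to 3.45), the testis isoform Cox8c gave 1.95 (1.22 to 2.98), and these intervals overlapped too. Those of Cox8b lay wholly below those of Cox8a in both libraries. Cox7b2, whose partner Cox7b is X-linked, gave 2.18 for Nsl1 (1.19 to 3.69) and 2.20 for Msl1. At Cox6a1 the values were 4.53 (3.49 to 5.80) and 3.01, against 2.29 (1.52 to 3.34) and 0.887 at the muscle isoform Cox6a2. Ndufa4l2 gave 1.65 for Nsl1 (1.08 to 2.41) and 1.15 for Msl1, below the intervals of Ndufa4. Hence the isoforms of Cox4, Cox6a, Cox7a and Ndufa4 differed beyond counting error in both libraries, and those of Cox6b and Cox7b in neither. In the isoform genes the promoters held few CpG, with a median observed to expected ratio of 0.310, where it was 0.776 over the 84 entries and 0.620 over all genes. CpG content moved with this result, and its part was not tested. The same holds for a neighbour start on the other strand within 1 kb, which none of the 8 isoform genes has. Cox4i1 has Cox4nb at 178 bases and Ndufa4 has Phf14 at 363 bases, and their reads cannot be told apart. Cox6a1 and Cox7a2 have no such neighbour.

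**Figure D3:**
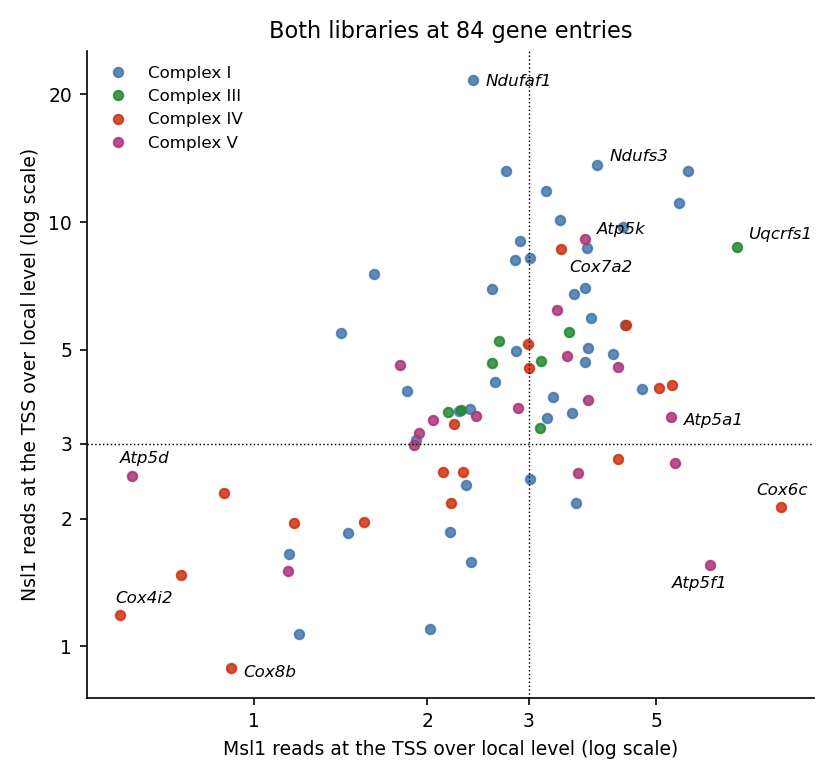
Nsl1 reads against Msl1 reads at the TSS over the local level, both on log axes, with 1 point per gene entry coloured by complex and dotted lines at 3 times the local level. Of the 84 points, 34 lie above both lines, and Ndufaf1 and Cox6c lie far from each other at opposite sides of the cloud.

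In complex V, the highest Nsl1 value was that of Atp5k, which encodes a small subunit of the membrane part. At its TSS, chr5:108863467, the Nsl1 library held 119 reads, 9.14 times (7.51 to 11.1), and there were 44 Msl1 reads, 3.76 times (2.71 to 5.08). Of the catalytic head, called F1, the gamma subunit gene Atp5c1 gave 6.21 for Nsl1 and 3.36 for Msl1. Atp5a1 gave 3.48 for Nsl1 and 5.30 for Msl1 (3.998 to 6.92), and Atp5b, the catalytic beta subunit, gave 2.99 and 1.90. The delta and epsilon subunit genes Atp5d and Atp5e gave 2.52 and 3.18 for Nsl1 and 0.613 and 1.93 for Msl1. The low Msl1 value of Atp5d rested on 16 reads over a local level of 26.1 reads per kb, the highest of the F1 genes. The 3 genes that encode the same subunit c of the proton ring lay close together, Atp5g1 at 3.49 for Nsl1 (2.72 to 4.404), Atp5g2 at 4.85 (3.72 to 6.22) and Atp5g3 at 4.55 (3.39 to 5.999), and their intervals overlapped.

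Some stalk genes of complex V differed from the others in where their Nsl1 reads lay. Atp5f1, subunit b of the outer stalk, held 17 Nsl1 reads, 1.55 times (0.901 to 2.50), and 59 Msl1 reads, 6.20 times (4.68 to 8.07). From 500 to 2000 bases downstream it held 73 Nsl1 reads, and their density was 2.87 times that at the TSS. The TSS of Wdr77 lies there on the other strand, 730 bases inside the gene, and the highest Nsl1 coverage lay at 895 bases. Atp5j, coupling factor 6 of the stalk, gave 2.70 for Nsl1 and 5.40 for Msl1, with its highest Nsl1 coverage at 685 bases, where the TSS of Gabpa lies 700 bases inside the gene on the other strand. Other annotated transcripts of both genes, in part not protein-coding, also begin inside the gene. Thus the Nsl1 maxima of these entries lay near the start of the neighbour, and reads of overlapping genes cannot be told apart. At the TSS used, Atp5j2, subunit f, was low in both libraries. It held 23 Nsl1 reads, 1.51 times (0.954 to 2.27), and 18 Msl1 reads, 1.15 times. From 500 to 2000 bases downstream, however, it held 42 Nsl1 reads and 71 Msl1 reads. Their density there was 1.22 times that at the TSS for Nsl1 (0.716 to 2.12) and 2.63 times for Msl1 (1.55 to 4.69). Of the entries that are no subunit, Atp5s gave 2.57 for Nsl1 and 3.65 for Msl1, and Atp5sl gave 4.61 and 1.795.

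**Figure D4:**
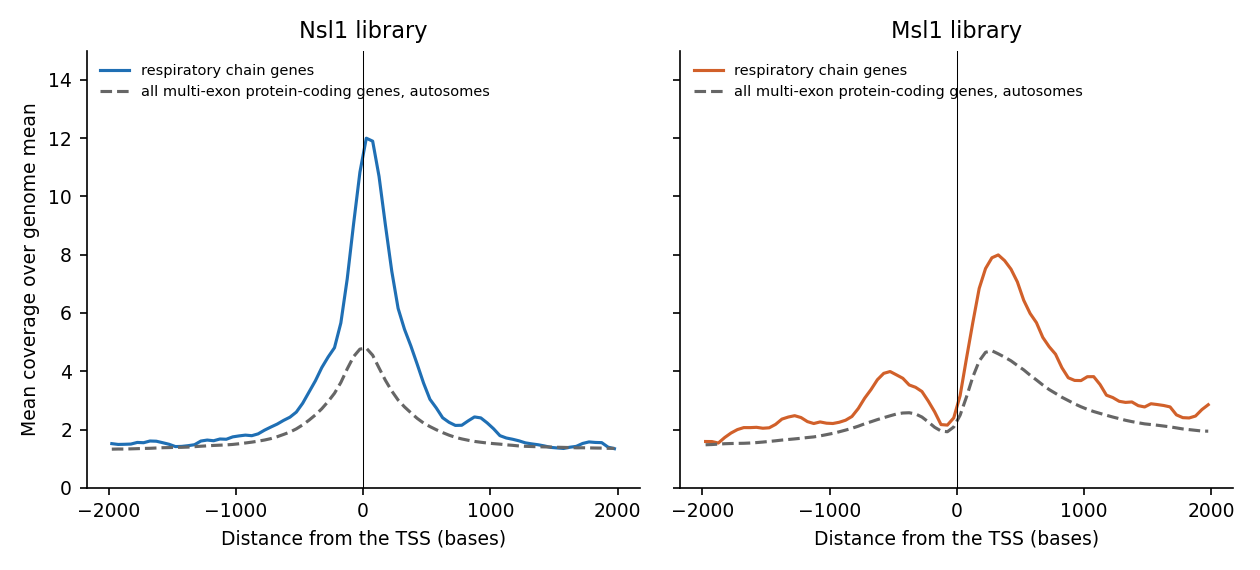
Mean coverage of Nsl1 (left) and Msl1 (right) by distance from the TSS in bases, over the genome mean of the library, in bins of 50 bases, for the 84 gene entries (solid) and all multi-exon autosomal genes (dashed). The Nsl1 maximum of the 84 entries lies at 0 to 50 bases and reaches 12.0, and that of Msl1 lies at 300 to 350 bases and reaches 7.99.

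The mean profiles around the TSS showed where in the genes the reads lay. The Nsl1 profile of the 84 entries was highest from 0 to 50 bases downstream, at 12.0 times the genome mean, and its width midway between the lowest and the highest bin was 400 bases. Over all genes the maximum lay in the same bin, at 4.80 times, with a width of 500 bases. The Msl1 profile of the 84 entries was highest from 300 to 350 bases, at 7.99 times and with a width of 650 bases, whereas over all genes the maximum lay from 250 to 300 bases, at 4.70 times and with a width of 800 bases. Just upstream of the TSS, from -100 to -50 bases, the Msl1 profile of the entries fell to 2.15, and it had a lower maximum of 3.99 from -550 to -500 bases. By complex, the Nsl1 profile reached 15.2 in complex I, 14.4 in complex III, 7.40 in complex IV and 8.75 in complex V. For Msl1 complex III was highest with 10.5, followed by 9.38 in complex V, 7.67 in complex I and 7.38 in complex IV.

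Within single genes the positions were taken only from entries at 3 times or more within 500 bases of the TSS. That filter favours maxima near the TSS, and positions were not counted over all genes. The highest Nsl1 coverage within 1 kb had a median position of 45 bases over the 58 entries at 3 times or more, with 37 in the first exon, 15 upstream and 5 in the first intron. For Msl1 the median position was 315 bases over 41 entries, with 22 in the first intron, 8 in the first exon and 7 upstream. Of the 34 entries at 3 times or more in both libraries, the Msl1 maximum lay further downstream in 27, and the median distance was 256.5 bases. At Ndufb3 both maxima lay at 105 bases, and at Ndufs1, whose TSS lies 3 bases from that of Eef1b2 on the other strand, both lay upstream, at -215 bases for Nsl1 and -605 bases for Msl1.

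The reads from 500 to 2000 bases downstream, per kb, were divided by those at the TSS and summed over the entries. This downstream ratio was 0.274 for Nsl1 (CI 0.261 to 0.288) and 0.733 for Msl1 (0.698 to 0.770), so that Msl1 reads fell off less within the genes. Over all genes the ratios were 0.457 and 0.814. No local level was subtracted, so genes with fewer reads above it at the TSS tend to a higher ratio. The 8 tissue-restricted isoforms, with a Nsl1 median of 1.802 at the TSS, gave 0.742 for Nsl1. Differences between groups thus also depend on the height at the TSS, and that part was not tested. By complex, Nsl1 gave 0.224 in complex I, 0.267 in complex III, 0.348 in complex IV and 0.390 in complex V. Msl1 gave 0.641, 0.797, 0.716 and 0.916 in the same order. The Nsl1 value of complex V rested in part on Atp5f1 and Atp5j, in which other genes start. Without these 2 it was 0.306 (0.272 to 0.345), below that of complex IV and with an overlapping interval (0.308 to 0.393), while the Msl1 value was 0.972. Other entries in which a gene starts were kept, Atp5o in complex V, Uqcrb in complex III and Ndufa13, Ndufb2, Ndufb5 and Ndufs3 in complex I. At Ndufa13, in which Tssk6 starts, the Nsl1 ratio was 1.23 (0.810 to 1.88). Complex IV without its tissue-restricted isoforms and the entries that are no subunit gave 0.266 for Nsl1 (0.224 to 0.314). The order of complexes IV and V thus rested on the entries left out. In the 5 genes of F1 the Msl1 ratio was 1.25 (1.05 to 1.51), and 4 of them held more Msl1 reads per kb downstream than at the TSS, as did 17 of the 84 entries (20.2%) and 34.7% of all genes. At Atp5b it was 1.46 (1.03 to 2.11) and at Atp5d 2.34 (1.32 to 4.36). At Atp5a1 it was 1.12 (0.798 to 1.57) and at Atp5e 1.08 (0.609 to 1.96), with intervals that include 1, while Atp5c1 gave 0.868. Beyond this window, from 2 kb to 5 kb in the 55 entries of at least 5 kb, Nsl1 gave 0.181 and Msl1 0.381, against 0.371 and 0.509 over all genes of that length. There the Msl1 value overlapped in its interval (0.359 to 0.403) with that of 47 mitochondrial ribosomal protein genes, 0.394 (0.369 to 0.420). From 1950 to 2000 bases, mean Nsl1 coverage was 1.34 times the genome mean in the 84 entries and 1.35 over all genes. The lower Nsl1 ratio of the entries thus cannot be read as fewer Nsl1 reads further downstream. From 500 to 2000 bases, cytosolic ribosomal protein genes gave a downstream ratio of 1.29 for Msl1 (1.24 to 1.34), and mitochondrial ribosomal protein genes gave 0.632 (0.601 to 0.666), so the respiratory genes lay between them in this window.

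**Figure D5:**
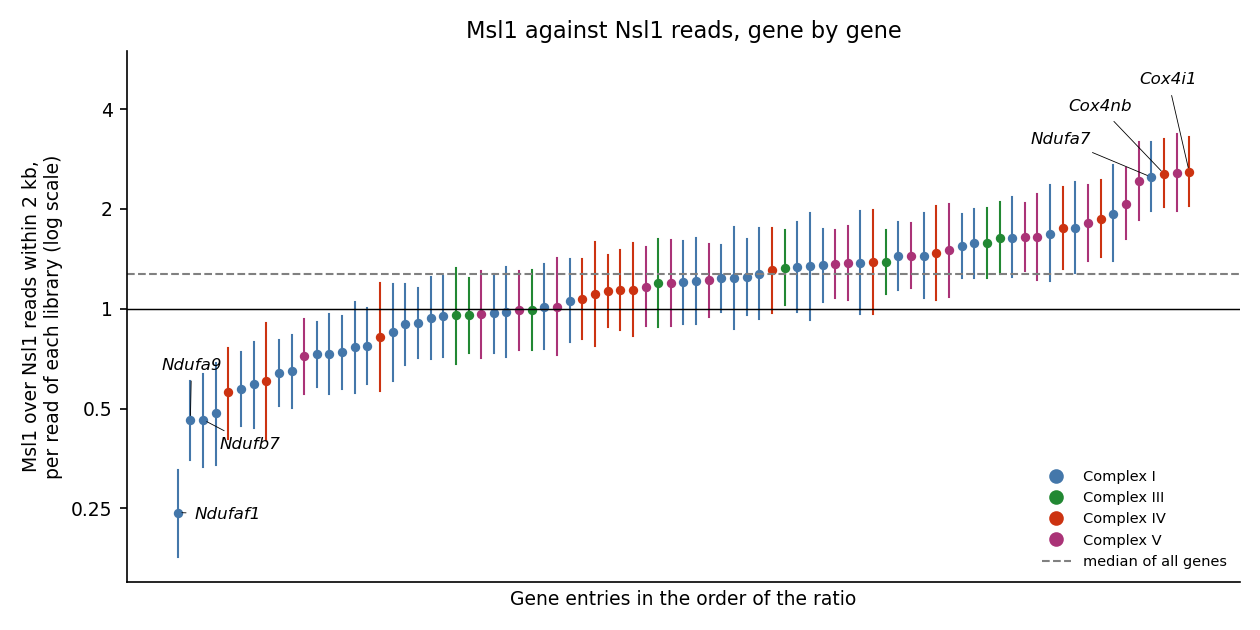
Msl1 reads over Nsl1 reads within 2 kb of the TSS, per read of each library, on a log axis, for the 81 gene entries with at least 100 reads, sorted and coloured by complex, with 95% intervals from counting error and with names at some of the lowest and highest entries. The dashed line is the median of all genes, 1.28, and the points run from 0.243 at Ndufaf1 to 2.59 at Cox4i1.

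The libraries were then set against each other gene by gene, with the reads within 2 kb of the TSS divided by the reads of each library. This compares 2 libraries that differ in kit and read length, not 2 conditions. Over the 81 entries with at least 100 reads the median of Msl1 to Nsl1 was 1.20, and over 13837 genes it was 1.28. The interval lay wholly below 1 at 14 entries (17.3%), against 8.02% of all genes, and wholly above 1 at 29 entries (35.8%), against 42.9% of all genes. Of the 41 entries of complex I, 11 lay below 1 and 10 above, with a median of 1.01. Of the 17 entries of complex V, 1 lay below 1 and 10 above, with a median of 1.37. With reads within 500 bases the median was 0.660 over the 42 entries that still had 100 reads, and the same entries gave 1.10 within 2 kb, so the window moved it. Over all genes these values were 0.626 and 1.02.

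At the lower end, Ndufaf1 gave 0.243 (0.178 to 0.326), Ndufa9 gave 0.463 (0.350 to 0.605) and Ndufb7 gave 0.463 (0.333 to 0.636). At the upper end, Cox4i1 gave 2.59 (2.05 to 3.29), Atp5b gave 2.57 (1.98 to 3.36) and Cox4nb, which shares its reads with Cox4i1, gave 2.55 (2.02 to 3.24). None of these intervals reached the median of all genes. Next to them, Ndufa7 gave 2.50 (1.97 to 3.18), and its TSS lies 29 bases from that of the ribosomal protein gene Rps28 on the other strand. Over the 75 cytosolic ribosomal protein genes the median was 2.13, and over the 76 mitochondrial ones it was 0.937. Of the 75, 35 had under 95% unique positions within 500 bases of the TSS for Nsl1 reads and 22 for Msl1 reads.

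A start of another gene on the other strand within 1 kb was found for 28 of the 84 entries (33.3%), against 15.6% of all genes, and 26 of these neighbours were protein-coding. The entries with a neighbour had medians of 4.69 for Nsl1 and 3.61 for Msl1, and the 56 without one had 3.58 and 2.42. All 8 tissue-restricted isoforms, with medians of 1.802 and 1.03, were among the 56, and no median was taken without them. Without the entries facing a neighbour, 36 of 56 (64.3%) reached 3 times for Nsl1 and 22 of 56 (39.3%) for Msl1, against 20.9% and 21.9% of all genes with no such neighbour. Reads of both starts fall into the same window, and how much of the signal belongs to each gene cannot be told apart.

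Promoter letters were searched from 250 bases before to 50 bases after the TSS on both strands. The Nrf1 core was found in 24 of 84 entries (28.6%), against 11.9% of all genes, the Ets motif in 16 (19.05%), against 12.2%, and the Yy1 motif in 8 (9.52%), against 3.40%. At least 1 of these 3 was found in 43 entries (51.2%), against 24.1%. By contrast, Sp1 was found in 44.0% against 49.7%, TATA in 9.52% against 11.04% and CCAAT in 38.1% against 36.9%. The letters searched for Nrf1, Ets and Sp1 contain CpG. The median CpG observed to expected ratio was 0.776 over the entries and 0.620 over all genes. The shares were not compared at equal CpG content, so its part was not tested. The 24 entries with the Nrf1 core had a median of 4.54 for Nsl1 and 2.87 for Msl1, and the 60 without it had 3.54 and 3.004. All 8 tissue-restricted isoforms were among the latter, and the other 52 had 3.96 and 3.18. The 4 entries with the highest Nsl1 values, Ndufaf1, Ndufs3, Ndufb3 and Ndufa9, held no match to it. Across the 84 entries Spearman's rho between the CpG observed to expected ratio and the value at the TSS was 0.32 for Nsl1 and 0.41 for Msl1. Between the libraries it was 0.49, all across genes that share their library. Without the 8 tissue-restricted isoforms these coefficients were 0.12, 0.25 and 0.35 over 76 entries. Over all multi-exon autosomal genes they were higher, at 0.55, 0.62 and 0.60.

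Of 46 further genes of the pathway listed by textbook knowledge, 43 were found in the annotation, and 32 reached 3 times for Nsl1 and 18 for Msl1, against 26.3% and 25.5% of all genes. Their medians were 5.04 and 2.87, against 1.796 and 1.99. The 4 genes of complex II, which feeds electrons from succinate, all reached 3 times for Nsl1, led by Sdhd with 100 reads, 8.30 times, and 3 of them did for Msl1. The 25 genes listed under assembly included Atpif1, an inhibitor of ATP synthase, and Usmg5, a small subunit of it. Of the other 23, which act in assembly or in the expression of mitochondrial genes, 20 reached 3 times for Nsl1 and 7 for Msl1, the latter near the share of all genes. The highest of them for Nsl1 were Acad9, which acts on complex I, with 144 reads, 14.8 times (12.3 to 17.7), and Cox16, which acts on complex IV, with 113 reads, 13.7 times (11.2 to 16.8). For Msl1 these gave 5.04 and 2.69. The electron carrier gene Cycs gave 5.99 for Nsl1 (4.61 to 7.66) and 3.15 for Msl1, and Cyc1, the cytochrome of complex III, gave 2.72 and 3.43. Cyct, the testis form of Cycs, gave 4.29 for Nsl1 (3.19 to 5.65) and 1.665 for Msl1. The Nsl1 intervals of Cycs and Cyct overlapped. The X-linked subunit genes Ndufa1, Ndufb11 and Cox7b, which the rule left out, gave 7.01, 2.89 and 3.14 for Nsl1 and 2.08, 3.06 and 3.05 for Msl1.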

How the data were processed

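Anti-Msl1 and anti-Nsl1 antibodies were each used for 1 single-end ChIP-seq library of wild type mESCs. Per the submitters' processing notes and the methods, reads were called with CASAVA 1.8.2 and aligned to mm9 with Bowtie 0.12.7, and unique reads were kept. The authors deposited 1 line per read with its positions, strand and a score, which has 1 value on every line and was not used. Repeated reads had not been removed by the authors, 18.3% of nuclear Msl1 and 4.56% of nuclear Nsl1 reads, and 1 was kept per position and strand.

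Reads were moved downstream by 105 bases (Msl1) and 65 bases (Nsl1), about the middle of fragments of 210 and 131 bases at the maximum of the strand cross-correlation between 80 and 400 bases on chromosomes 16, 18 and 19. Profiles used reads extended to 200 bases. Genes came from GENCODE vM1 on mm9, with the TSS of the protein-coding transcript with the longest coding sequence. A gene with no read in its flanks had no ratio. Positions left out by the unique alignment were estimated from mm9, and 10 entries had under 95% unique positions in the TSS window for 36 bases. Intervals are exact 95% binomial intervals conditional on both counts. Counting was tested on simulated data. Python 3.11.15, numpy 2.4.6, pandas 2.3.3, scipy 1.17.1, numba 0.67.0 and matplotlib 3.10.9 were used.

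Every member was counted. Named with values were the 3 highest members per library and complex, the lowest for Nsl1, core, F1, isoform and assembly factor genes, the 3 at each end of Msl1 to Nsl1, members facing each other and those that are no subunit. Others named were chosen after their values were seen. The values of 1 gene that the rule names are not reported here. Members and lists were chosen with earlier results of these data known. The alternatives were all reads kept, other windows, local levels, starts and thresholds, reads not moved, and members left out.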

Additional observations from a re-analysis of the deposited data

Results flagged for a closer look

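Reads on the mitochondrial chromosome, which encodes the remaining subunits of complexes I, III, IV and V and entered no comparison, are given here as counts because they lie outside the values above. The Nsl1 library held 12333 such reads, 0.0473% of its reads (exact 95% binomial interval 0.0465 to 0.0481), at 8299 distinct positions and strands. The Msl1 library held 34756, 0.145% (0.144 to 0.147), at 8797. No control library was used beside them.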

How the results depend on the processing

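Of 160 values of the summaries recomputed under other settings, 135 stayed within their interval or, for counts, within 1.5 times, and of 864 values of named genes 688 did. With 250 bases on each side, the Nsl1 median was 5.39, and for Msl1 25 entries reached 3 times (29.8%, against 20.4% of all genes), with a median of 2.31. With 1000 bases, 35 entries (41.7%, against 14.8%) reached it for Nsl1 with a median of 2.73, and the medians of complexes I, III and V were 3.19, 2.96 and 2.56. Over the genome level, the Nsl1 median was 5.91, with 5.44 in complex V, and 69 entries reached 3 times for Msl1 (48.2% of all genes), with medians of 4.79, 4.59 in complex I and 5.64 in complex V. At least 2 times was reached by 66 entries for Msl1 (78.6%, against 49.6%) and at least 4 times by 16 of 84 (against 10.6%). The downstream ratio was 0.260 for Nsl1 with all reads kept, 0.260 without Atp5f1 and Atp5j, a setting chosen after seeing the data, and 0.231 for Nsl1 and 0.607 for Msl1 from 1000 to 2000 bases. The median of Msl1 to Nsl1 within 500 bases was 0.660. Without entries facing a neighbour, 36 and 22 of 56 reached 3 times (against 20.9% and 21.9% of all genes with no such neighbour), and the Msl1 median was 2.42 and its downstream ratio 0.785. These counts are over fewer entries, and the cause of the other shifts was not tested. Division by the share of unique positions, leaving out entries with under 95% of them and leaving out those that are no subunit were chosen after seeing the data and changed none of these summaries beyond that margin. No paired analysis was possible because each antibody had 1 library and the labels give no replicate numbers. The windows at TSSs held between 9 and 239 reads, which limits single genes.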

Other observations

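The genes of factors known to regulate the respiratory chain varied widely. Of 8 listed regulator genes, 3 reached 3 times the local level for Nsl1 and 4 for Msl1, against 26.3% and 25.5% of all genes, with medians of 2.30 and 3.45. Gabpa held 68 Nsl1 reads, 5.75 times (4.43 to 7.35), and 67 Msl1 reads, 5.29 times, and its start lies in the member Atp5j. Gabpb1, its partner subunit, gave 3.54 for Nsl1 and 4.46 for Msl1. Tfam, which packages and transcribes mitochondrial DNA, gave 4.004 for Nsl1 and 2.9999 for Msl1. Nrf1 gave 2.18 for Nsl1 and 3.89 for Msl1, and the coactivator Ppargc1b gave 1.98 for Nsl1 and 5.98 for Msl1. Esrra and the coactivator Ppargc1a, which acts mainly in muscle and brown fat, were low in both libraries, with 0.853 and 1.25 for Nsl1 and 0.723 and 1.51 for Msl1.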
